A study of Drosophila melanogaster with 16 samples.

Results

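The ELAV and Bruno families of neuronal RNA-binding proteins were followed across 7 types of fly visual system neuron. The members were the 6 genes whose symbols in the deposited expression table are elav, fne, Rbp9, aret, bru-2 and bru-3, out of 15682 genes in that table. They were selected on their measured levels by cell type in these same libraries, so the levels and differences given for them are a description, and where a count of members past a threshold is given, it stands beside the share of all genes and nothing is read from it. The series, framed by its title around immunoglobulin superfamily ligands and receptors in synaptic partners, holds 16 RNA-seq libraries of neurons sorted by flow cytometry from dissociated pupal Drosophila melanogaster brain tissue. R7 and R8, the colour-sensing photoreceptors whose axons end in the medulla, had 2 libraries each. Of the lamina neurons, which carry visual input from the lamina to the medulla, L3 had 4 libraries and L1, L2, L4 and L5 had 2 each.

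All groups are labelled wild type, and the labels name no driver, transgene or sort marker. The labels conflict on age. By the age field R7 cells came from 65 h after pupal formation and R8 cells from 96 h, and the lamina types from 24 h (L1), 35 h (L2), 40 h (L3), 45 h (L4) and 53 h (L5). The dissection protocol gives 40 h for every library, and the column headings of the lamina libraries in the table also carry 40. Should the age field be right, a difference between types and a difference between ages cannot be told apart. The labels do not say that replicates came from separate animals, so p-values measure the spread between libraries, which may be technical.

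Neuronal RNA-binding proteins of the ELAV family bind U-rich stretches in RNA and act on alternative splicing, on the choice of polyadenylation site and on mRNA stability and translation. In Drosophila the family has 3 genes: elav, whose mainly nuclear product is the standard marker of postmitotic neurons, and its paralogs fne ("found in neurons") and Rbp9. Bruno proteins, the fly CELF family, act on translation and splicing. The best known, the product of aret (arrest, now named bru1), represses translation of oskar mRNA in the oocyte and controls splicing in flight muscle. Much less is established for bru-2 and bru-3 in neurons.

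Depth estimated from the steps between low values was 47.1 to 153.25 M reads per library. Cell type markers followed the labels. The 8 photoreceptor markers summed to 2841 to 3853 RPKM (reads divided by transcript length and by library size, the unit used throughout) in the R7 and R8 libraries and 8.40 to 164 RPKM in the lamina libraries. The 10 lamina markers summed to 6.61 to 11.2 RPKM in R7 and R8 and 353 to 1346 RPKM in the lamina. The 9 general neuron markers summed to 1232 to 1428 RPKM in R7 and R8 and 1076 to 2468 RPKM in the lamina. The 9 glial markers summed to 24.8 to 36.0 RPKM in R7 and R8, mostly nrv2, and 10.9 to 40.1 RPKM in the lamina, with the defining glial gene repo at no more than 1.18 RPKM in any library. The 6 blood cell markers summed to 0.311 to 0.752 RPKM in R7 and R8 and 13.8 to 278 RPKM in the lamina, where Pxn carried nearly all of the sum and Hml stayed at or below 0.970 RPKM. The 4 measured cone and pigment cell markers summed to 57.8 to 141 RPKM in R7 and R8 and 82.6 to 1083 RPKM in the lamina. Most of that sum came from the eye pigment transporter gene w, except in L2, where rdo averaged 67.7 RPKM and w 41.2 RPKM. Muscle markers stayed at or below 21.3, fat body markers at or below 15.6 and progenitor markers at or below 10.2 RPKM. The part of these genes in the member levels was not tested.

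The families differed in composition between photoreceptors and lamina neurons. In the ELAV family, Rbp9 was the highest member in R7 and R8 and fne the highest in each of L1 to L5. In the Bruno family, bru-3 dominated in R7, R8 and L3, and aret in L1 and L5. The family was low in L2, where aret had the largest share, and in L4, which held all 3 members. Its sum was 1.74 to 2.39 RPKM in L2 and 5.96 to 7.87 RPKM in L4. All 6 genes met the filter used for fitting, 1 RPKM or more in at least 2 libraries, as did 9346 of all 15682 genes. elav, fne and Rbp9 met it in 16 of 16 libraries, aret in 13 and bru-3 in 10. bru-2 reached 1 RPKM in 6 libraries, those of L3 and L4, and passed through them alone.

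**Figure D1:**
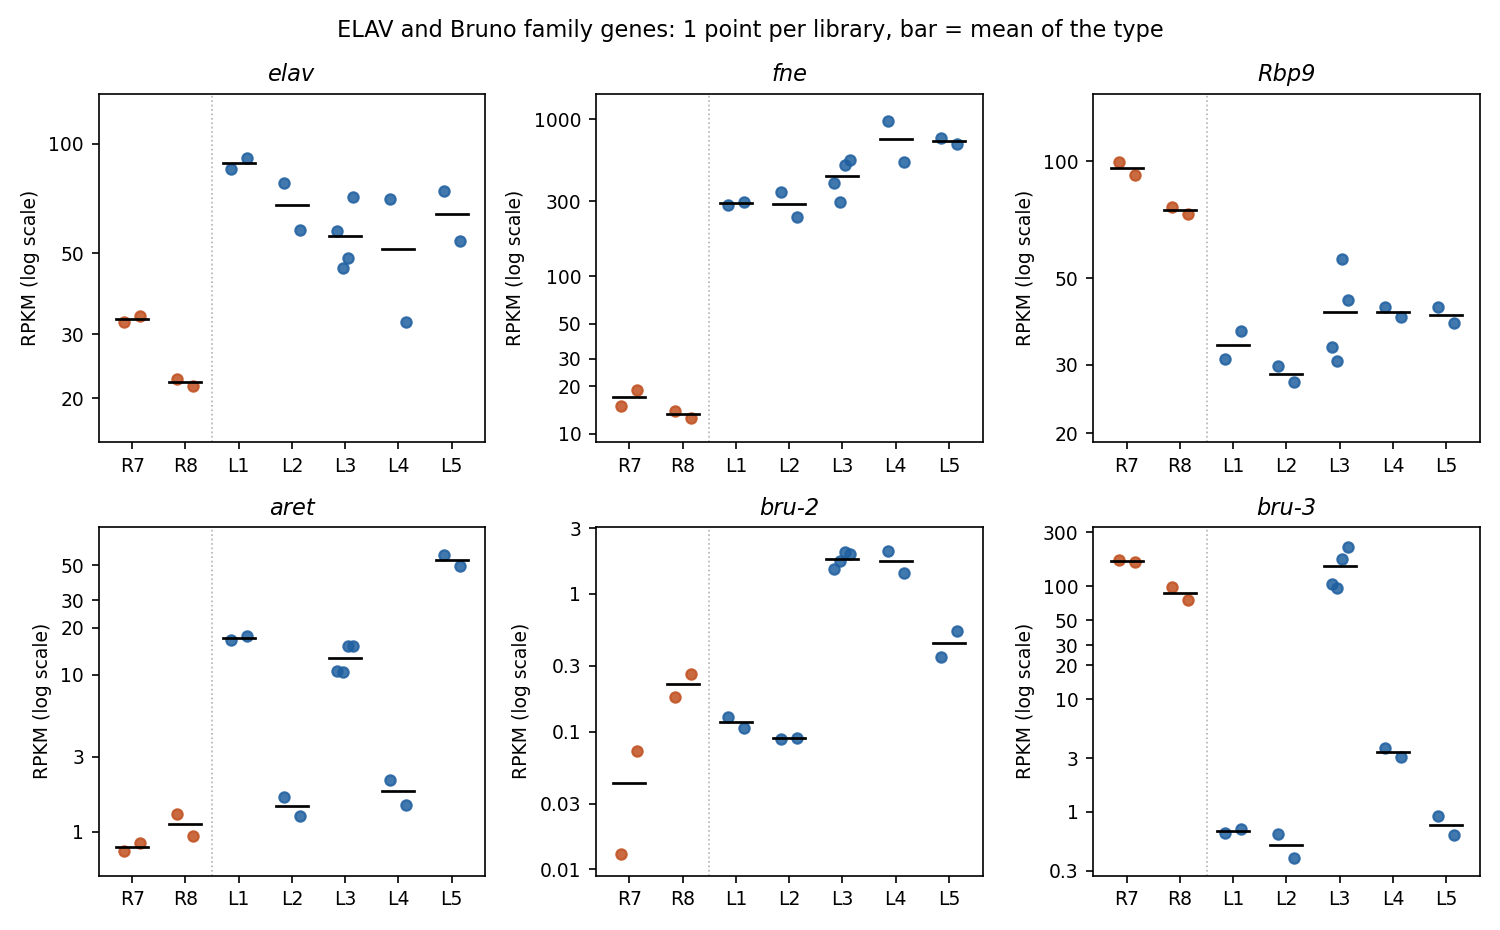
Level of each ELAV family gene (top row) and Bruno family gene (bottom row) in RPKM on a log axis, by cell type, with 1 point per library and a bar at the mean of the type. fne lies between 12.7 and 19.0 RPKM in R7 and R8 and above 238 RPKM in every lamina library, Rbp9 lies the other way round, and bru-3 is high in R7, R8 and L3.

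elav (FBgn0260400) encodes the nuclear regulator after which the family is named. It had 32.5 and 33.7 RPKM in the R7 libraries and 22.6 and 21.7 RPKM in the R8 libraries. In the lamina it had 85.1 and 91.7 RPKM in L1, 78.1 and 58.0 in L2, 57.7, 45.6, 48.5 and 71.6 in L3, 70.7 and 32.5 in L4, and 74.1 and 54.1 in L5. The photoreceptor libraries were the lowest, and the classes met at a single library, L4 replicate 2, which lay at the level of R7. The mean over types was 27.6 RPKM for R7 and R8 and 65.6 RPKM for L1 to L5, a log2 difference of -1.19 (SE 0.18, from the fit of log2(RPKM + 1) described under processing). From high to low the types ran L1, L2, L5, L3, L4, R7 and R8. The libraries of each neighbouring pair from L2 to R7 overlapped, so the order of those neighbours lies within the replicate spread. Every L2, L5 and L3 library nevertheless lay above both R7 libraries. L1 lay above L2 and R7 above R8 in every library. The 2 L4 libraries differed 2.18-fold in elav. In the current annotation (BDGP6) 34.2% of the exonic bases of elav are shared with arg on the opposite strand and with a noncoding gene on the same strand. Whether counting used strand is not given in the sources used here, so reads of elav and arg cannot be told apart there. arg itself was at 0.107 to 0.626 RPKM in R7 and R8 and 0.256 to 2.63 RPKM in the lamina.

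fne (FBgn0086675) encodes the most compact of the 3 ELAV family proteins, at most 371 coding codons in BDGP6 against 483 for elav and 684 for Rbp9. It had 15.1 and 19.0 RPKM in R7 and 13.98 and 12.7 RPKM in R8. In the lamina it had 287 and 295 RPKM in L1, 342 and 238 in L2, 389.6, 296, 509.9 and 549 in L3, 969 and 534 in L4, and 763 and 695 in L5. No lamina library came near the photoreceptors. Averaged over types, fne was at 15.2 RPKM in R7 and R8 and 499.5 RPKM in L1 to L5, a log2 difference of -4.82 (SE 0.19). Within the lamina L4 and L5 were highest and overlapped, L3 lay below L5 and above L1 in every library, and L1 and L2 overlapped at the bottom. Unlike elav, whose highest type was L1, fne was lowest in L1 and L2 among lamina types. The ratio of fne to elav, which does not depend on scaling between libraries, was 0.466 to 0.618 in R7 and R8 and 3.22 to 16.4 in the lamina. Since these are bulk libraries of sorted cells, fewer cells expressing a gene and less of its RNA per cell cannot be told apart.

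Rbp9 (FBgn0010263), known in neurons and also for its role in female germ cell differentiation, ran opposite to its paralogs. It had 99.4 and 92.2 RPKM in R7 and 76.3 and 73.2 RPKM in R8. In the lamina it had 31.0 and 36.6 RPKM in L1, 29.7 and 27.1 in L2, 33.3, 30.6, 56.2 and 43.9 in L3, 42.2 and 39.8 in L4, and 42.3 and 38.4 in L5. Every R7 and R8 library lay above every lamina library. The mean over types was 85.3 RPKM in R7 and R8 and 36.9 RPKM in L1 to L5, a log2 difference of 1.20 (SE 0.14). L3, L4 and L5 had nearly equal means and overlapped, L1 lay just below L5, and L2 was lowest. Rbp9 had the narrowest range of the ELAV genes, 1.72 log2 units between its highest and lowest type, against a median of 1.40 over all genes tested.

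As shares of the summed RPKM of the 3 ELAV genes, Rbp9 made up 63.6% to 68.1% in the R7 and R8 libraries and 3.90% to 9.14% in the lamina libraries. fne made up 10.3% to 13.1% in R7 and R8 and 69.7% to 89.6% in the lamina. The elav share was 20.04% to 23.3% in R7 and R8 and 5.36% to 21.6% in the lamina. The elav share in L1, 21.1% to 21.6%, thus lay inside the photoreceptor range, and in L4 it was 5.36% to 6.53%. The family sum itself was 107 to 147 RPKM in R7 and R8 and 323 to 1082 RPKM in the lamina, a gap carried by fne.

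**Figure D2:**
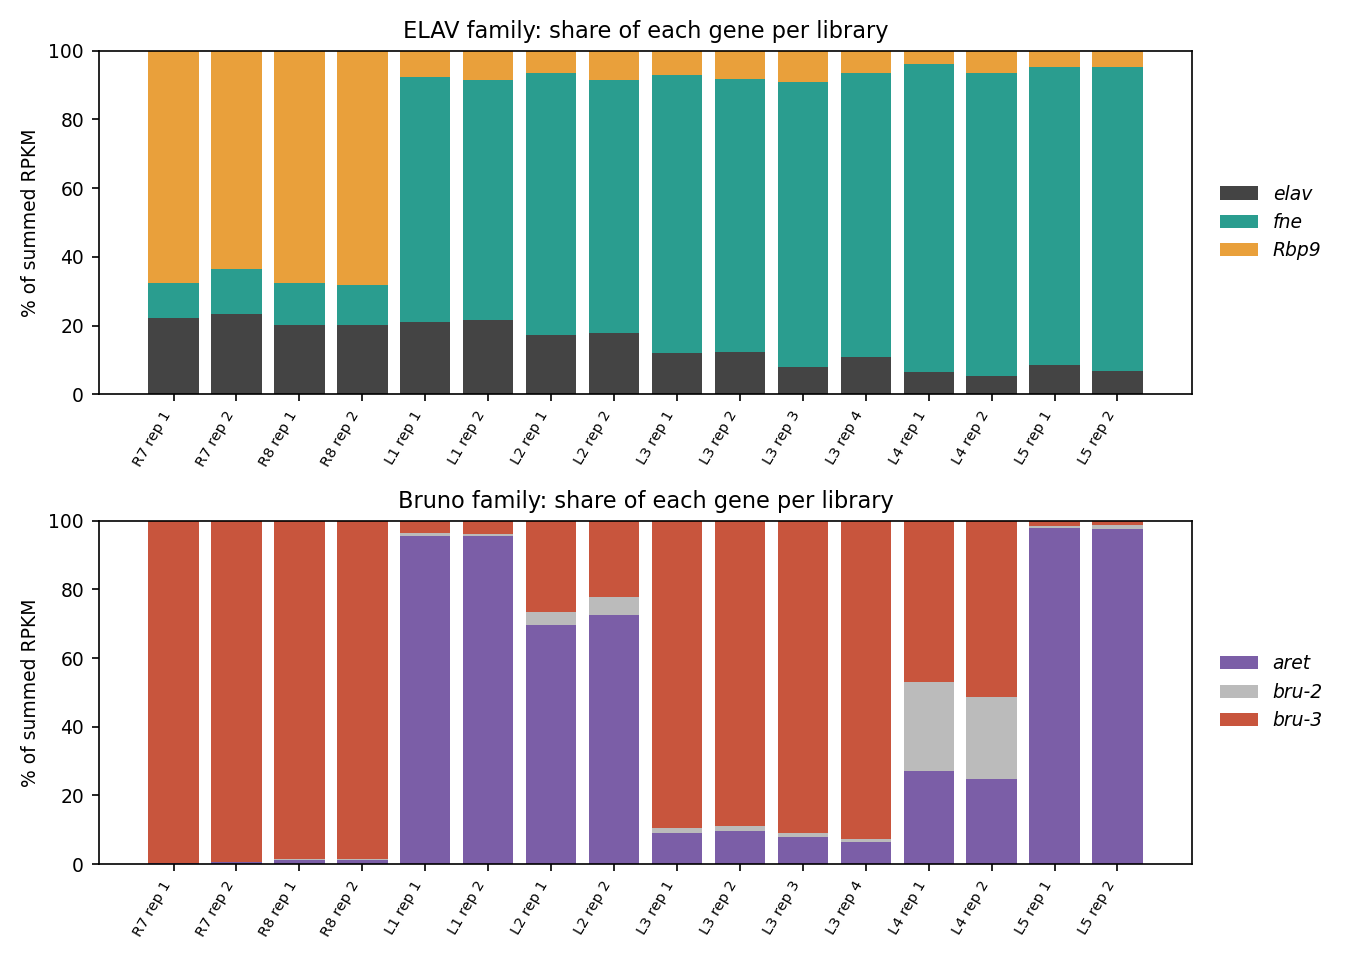
Share of each gene in the summed RPKM of the ELAV family (top) and of the Bruno family (bottom), in percent, with 1 stacked bar per library. Rbp9 fills over 63% of the ELAV bars of R7 and R8 and under 10% of the lamina bars. The Bruno bars switch between bru-3 (R7, R8 and L3) and aret (L1, L2 and L5). Shares hide levels: the Bruno sum in L2 was only 1.74 to 2.39 RPKM.

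aret (FBgn0000114), the Bruno gene of the oocyte, was a lamina gene in these libraries, concentrated in L5. It had 0.750 and 0.851 RPKM in R7 and 1.31 and 0.945 RPKM in R8. In the lamina it had 58.6 and 49.5 RPKM in L5, 16.7 and 17.8 in L1, and 10.6, 10.5, 15.3 and 15.3 in L3. In L4 it had 2.14 and 1.48 RPKM and in L2 1.66 and 1.26 RPKM. The lamina thus split into 3 types with aret above 10 RPKM and a pair, L2 and L4, near the photoreceptor level, with R8 and L2 overlapping. L5 was 3.14 times L1, and L3 was 7.15 times L4, both without overlap of libraries. The log2 difference of R7 and R8 from L1 to L5 was -2.34 (SE 0.13).

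bru-2 (FBgn0262475), a CELF family gene on the same chromosome arm (2L) as aret and Rbp9, was the least abundant member. It had 0.0129 and 0.0718 RPKM in R7 and 0.179 and 0.262 RPKM in R8. L3 had 1.53, 1.72, 2.0 and 1.95 RPKM and L4 had 2.04 and 1.42 RPKM. The other lamina types had 0.345 and 0.538 RPKM in L5, 0.127 and 0.106 in L1, and 0.0885 and 0.0902 in L2. L3 and L4 formed an overlapping top pair, 3.92 times L5 or more by type mean, and R8 lay above L1 and L2 in every library. In R7 replicate 1 the level corresponds to about 6 reads (3 reads are worth 0.00644 RPKM there), so it carries a large counting error. The log2 difference of R7 and R8 from the lamina was -0.57 (SE 0.10), a scale that compresses differences between values under 1 RPKM, and -1.50 with a pseudocount of 0.1.

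bru-3 (FBgn0264001), a CELF family gene on 3L whose annotated locus spans 281494 bases, had the widest range of the 6. It had 170.3 and 163 RPKM in R7 and 98.7 and 75.5 RPKM in R8. L3 had 103.7, 97.2, 174 and 223 RPKM. The other lamina types had 3.70 and 3.06 RPKM in L4, 0.916 and 0.628 in L5, 0.648 and 0.709 in L1, and 0.638 and 0.389 in L2. L3 overlapped both photoreceptor types, whereas R8 was 25.8 times L4. In the L3 libraries bru-3 stood at 76.6% to 175% of its mean in R7 and R8, while the summed photoreceptor markers stood at 1.81% to 4.86% of theirs. The span between R7 and L2 was 6.79 log2 units, wider than that of 98.9% of genes tested. fne and aret, at 5.72 and 4.93 log2 units, were wider than 97.5% and 95.8%, whereas elav (1.95), Rbp9 (1.72) and bru-2 (1.42) lay nearer the median of 1.40. The bru-2 span is compressed by the added 1 RPKM: with a pseudocount of 0.1 it was 3.74, wider than that of 78.6% of genes. The median over all genes tested was then 1.90. At that setting elav spanned 1.99, wider than 52.3% of genes, and Rbp9 1.75, wider than 46.0%. For bru-3 the log2 difference of R7 and R8 from L1 to L5 was 4.63 (SE 0.19), and 5.85 without the 4 L3 libraries.

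In the Bruno family sum, bru-3 made up 98.4% to 99.6% in R7 and R8. Among lamina types it made up 88.8% to 92.8% in L3 and 47.0% to 51.3% in L4. aret made up 95.6% in both L1 libraries, 97.7% to 97.9% in L5 and 69.6% to 72.5% in L2. bru-2 reached 23.8% to 25.9% in L4, its highest share. The sums differed widely: 164 to 171 RPKM in R7, 76.7 to 100.1 RPKM in R8, 109 to 240 RPKM in L3, 50.7 to 59.9 RPKM in L5, 17.5 to 18.6 RPKM in L1, 5.96 to 7.87 RPKM in L4 and 1.74 to 2.39 RPKM in L2. L2, with the lowest Bruno sum, also had the lowest Rbp9 among all types.

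Replicates within a type were not equally close. L3 replicates 3 and 4 exceeded replicates 1 and 2 by 1.97-fold for bru-3, 1.57-fold for Rbp9, 1.55-fold for fne and 1.45-fold for aret, and by 1.22-fold for bru-2 and 1.16-fold for elav. The mitochondrial share of reads was 14.61% in replicate 3 and 9.60% in replicate 4, against 4.17% in replicate 1 and 3.96% in replicate 2. L3 bru-3 averaged 198 RPKM over replicates 3 and 4 and 100.5 RPKM over replicates 1 and 2, so its place above or below R7 (mean 167 RPKM) depends on which are used. The part of RNA quality in this was not tested.

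In the fit over all genes (limma, Benjamini-Hochberg adjusted p under 0.05), 2 of 6 members, Rbp9 and bru-3, were higher in R7 and R8 than in L1 to L5, against a background of 31.7% of all genes tested. The other 4 were lower, against a background of 30.2%. Among these, bru-2 had met the filter only through L3 and L4, where it is high, so its lower call says nothing further. The same holds for aret, which among R7 and R8 libraries reached 1 RPKM only in R8 replicate 1. bru-3 reached 1 RPKM only in R7, R8, L3 and L4, the types where it is highest, so its call is only a description. Rbp9 was the only member with every R7 and R8 library above every lamina library (14.8% of all genes) and fne the only one with every library below (11.7%).

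Between R7 and R8 no member passed the test in limma, against backgrounds of 3.20% of genes higher and 7.14% lower in R7. The libraries of R7 and R8 did not overlap for any of the 6 genes, as for 69.9% of all genes tested. The log2 difference of R7 from R8 was 0.94 (SE 0.33) for bru-3, 0.56 (SE 0.32) for elav, 0.35 (SE 0.24) for Rbp9 and 0.33 (SE 0.32) for fne. It was -0.23 (SE 0.23) for aret and -0.23 (SE 0.18) for bru-2, where the aret difference was 0.04 after quantile normalization. In a fit of the 4 R7 and R8 libraries alone, in which aret and bru-2 did not meet the filter, bru-3, elav and Rbp9 were called higher, against 18% of genes higher and 18.7% lower in that fit. bru-3 was also called when L3 replicate 4, L3 replicates 3 and 4 or all L3 libraries were left out. A difference that misses the threshold does not show that R7 and R8 had equal levels.

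Among L1 to L5, 4 of 6 members (fne, aret, bru-2 and bru-3) were called by the F-test in limma, against 44.6% of all genes tested. bru-2 had met the filter only through L3 and L4, where it is high, so its call says nothing further. Among lamina types bru-3 also reached 1 RPKM only in L3 and L4, where it is highest, so its call is only a description. The span of type means was 6.55 log2 units for bru-3, 4.48 for aret, 1.36 for bru-2 and 1.35 for fne. With a pseudocount of 0.1 the bru-2 span was 3.32. elav and Rbp9 spanned 0.87 and 0.51 log2 units and were not called. Without L4 replicate 1 the elav span was 1.42. Rbp9 was called without L3 and without L3 replicates 3 and 4. More genes were called in those settings too, 4710 and 5697, against 4164 with all libraries. For bru-3 the span was 1.53 without L3.

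For each member the 3 genes with the most similar pattern were taken by Pearson correlation of log2(RPKM + 1) over the 16 libraries, among 4341 genes with a type mean of at least 10 RPKM and a span of at least 1 log2 unit. These correlations mostly reflect differences between the 7 types and share library depth and scaling, so they are descriptive. elav was closest to l(1)G0232 (r = 0.970, now Ptpmeg2, a predicted tyrosine phosphatase), Btk29A (0.932, a cytoplasmic tyrosine kinase) and CG31687 (0.928). fne was closest to CG42322 (0.990), the nicotinic acetylcholine receptor subunit gene nAcRbeta-64B (0.980) and CG43347 (0.976). nAcRbeta-64B averaged 7.21 RPKM in R7 and 8.52 RPKM in R8, against 153 RPKM in L2, its lowest lamina type.

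Rbp9 was closest to Klp10A (0.970), which encodes a microtubule-depolymerizing kinesin, toy (0.966), a Pax6 gene of eye development, and CG34351 (0.947). toy averaged 47.7 RPKM in R7 and 35.8 RPKM in R8, and 3.07 to 7.64 RPKM in the lamina types. aret was closest to the rhodopsin gene Rh7 (0.968), CG42750 (0.966) and CG33922 (0.908). Rh7 averaged 0.248 RPKM in R7 and 0.591 RPKM in R8, against 67.8 RPKM in L5, 31.8 in L1 and 22.6 in L3, and so marked the same 3 lamina types.

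The pattern of bru-2 was closest to that of beat-IIb (0.984), CG12484 (0.981, now side-VIII) and beat-IIa (0.966), which encode immunoglobulin superfamily proteins of the Beat and Side groups. beat-IIb averaged 1.40 RPKM in R7 and 2.42 RPKM in R8, against 192 RPKM in L3 and 203 RPKM in L4. bru-3 was closest to CG14795 (0.972), CG10710 (0.968) and Arc1 (0.959), which encodes a capsid-forming protein that carries RNA between cells. CG14795 averaged 135.5 RPKM in R7 and 102.5 RPKM in R8, against 184 RPKM in L3 and at most 5.21 RPKM in the other lamina types.

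**Figure D3:**
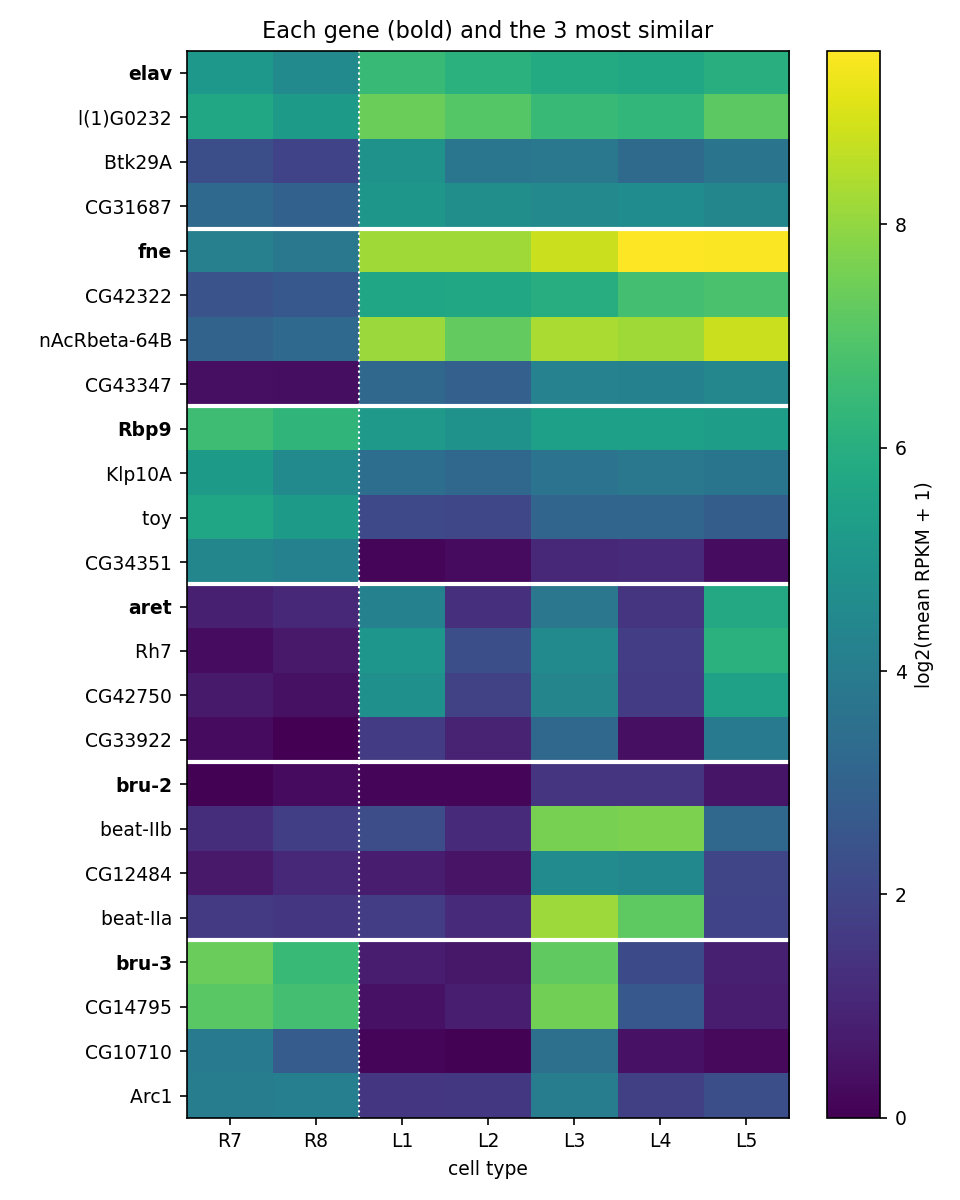
Mean level by cell type, as log2(mean RPKM + 1) on the color scale, for each of the 6 genes (bold) and the 3 genes most correlated with it over 16 libraries. The rows under fne are dark in R7 and R8 and bright in L1 to L5, those under aret are brightest in L5 (with CG33922 dark in L1), and those under bru-3 are bright in R7, R8 and L3.

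Other RNA regulators were compared between photoreceptors and lamina neurons by 4 lists, in the same fit (limma, adjusted p over all genes). The lists were chosen with earlier results of these data known, so their counts and p-values are not an independent test. Of 31 splicing regulators, 4 were higher and 17 lower in R7 and R8, where 31.7% of all genes were higher and 30.2% lower, with a median log2 difference of -0.38 against -0.02 over all genes tested. mbl (muscleblind), needed for photoreceptor differentiation, rose by 4.18 (SE 0.18, adjusted p = 6.94e-10), with 204.8 to 234 RPKM in R7 and R8 and 2.07 to 96.8 RPKM in the lamina. heph, the fly PTB homolog, was higher by 1.59 (adjusted p = 2.58e-07) and ssx, a relative of Sex-lethal, by 0.57 (adjusted p = 0.00143). The heph difference is one of means over types: R8 averaged 6.96 RPKM, below L5 at 8.35 RPKM. The classes overlapped for ssx, at 22.2 to 29.8 RPKM in R7 and R8 and 14.3 to 24.1 RPKM in the lamina. A2bp1 (now Rbfox1), which regulates neuronal splicing, was lower (-3.15, SE 0.15, adjusted p = 1.74e-09), at 2.35 to 3.87 RPKM in R7 and R8 and 12.98 to 80.8 RPKM in the lamina. Rox8 (-1.75, adjusted p = 1.24e-08), the fly TIA1 homolog, pUf68 (-1.38, adjusted p = 1.03e-05) and Sxl (-1.28, adjusted p = 2.10e-05), whose RNA-binding domains resemble those of ELAV proteins, were also lower. The smallest called increase, qkr58E-2 at 0.27 (adjusted p = 0.0169), was lost in 3 of the alternative settings.

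Of 20 translation and mRNA localization regulators tested, from a list of 22, 5 were higher and 7 lower in R7 and R8. These shares were near those of all genes (31.7% and 30.2%), and the median log2 difference was -0.16. Imp, which binds mRNAs for transport and sets temporal programs in neural lineages, was higher by 4.11 (SE 0.16, adjusted p = 2.67e-10), at 54.1 to 60.7 RPKM in R7 and R8 and 0.797 to 8.70 RPKM in the lamina. msi (1.25, adjusted p = 3.56e-06), the musashi gene, stau (0.76, adjusted p = 8.46e-05), a double-stranded RNA-binding protein, and larp (0.60, adjusted p = 0.0104) were also higher. The msi difference is one of means over types: R7 (14.4 RPKM) and R8 (16.7 RPKM) lay below L3 (20.7 RPKM) and L4 (36.3 RPKM) and above the other lamina types. Rbp6, a Musashi relative, was lower (-3.82, SE 0.19, adjusted p = 2.22e-09), at 26.7 to 55.2 RPKM in R7 and R8 and 316 to 878 RPKM in the lamina. shep (-2.30, adjusted p = 3.26e-06), orb2 (-1.71, adjusted p = 4.04e-07), a CPEB protein of long-term memory, and bel (-1.07, adjusted p = 0.00535), a DEAD-box helicase, were lower. Annotated overlap was 14.8% of exonic bases for orb2, 18.9% for qkr58E-2 and 9.6% for Rox8, and was not assessed for Imp and mbl, whose identifiers have no entry in the annotation used.

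Of 15 cleavage and polyadenylation genes tested, from a list of 16, 4 were higher and 4 lower, shares near those of all genes (31.7% and 30.2%), with a median of 0.01. pAbp, which encodes the cytoplasmic poly(A)-binding protein, was higher by 1.35 (SE 0.12, adjusted p = 6.68e-07), with 358 to 569.8 RPKM in R7 and R8 and 93.4 to 352 RPKM in the lamina. Cpsf73, the cleavage endonuclease, was higher by 0.59 (adjusted p = 0.00259), and CG7185 (now Cpsf6), a cleavage factor subunit, lower (-1.02, adjusted p = 2.84e-05). The Cpsf73 difference is one of means over types: R8 averaged 41.6 RPKM, below L2 at 50.1 RPKM. Fip1 (0.36, adjusted p = 0.0193), Pabp2 (-0.48, adjusted p = 0.0218) and hrg (-0.30, adjusted p = 0.0327) were called in all libraries and lost the call when some single libraries were left out. Without R7 replicate 1 the counts were 2 higher and 2 lower.

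Of 13 genes reported as ELAV targets in the literature, 2 were higher and 5 lower in R7 and R8, with a median of -0.31. Among all genes 31.7% were higher and 30.2% lower. After quantile normalization 1 target was higher and 7 were lower, where 2865 of all genes were higher and 2935 lower. These calls concern gene totals and do not report the splicing or 3' end choices through which ELAV acts. ewg, a well described splicing target, was lower (-1.39, SE 0.11, adjusted p = 2.23e-07), at 3.55 to 4.77 RPKM in R7 and R8 and 8.27 to 24.6 RPKM in the lamina. brat (-0.86, adjusted p = 0.00454), AGO1 (-0.83, adjusted p = 0.00450) and shep, given above, were lower, and Imp was higher. Nrg, an adhesion molecule with a neuronal ELAV-dependent isoform, was called higher by 0.31 (adjusted p = 0.0322), a call lost in 9 of 22 alternative settings, where its adjusted p ranged from 0.0536 to 0.537. By type mean, Nrg in R7 (72.1 RPKM) and R8 (79.6 RPKM) lay below L1 (118 RPKM). Exon overlap was not assessed for Nrg or pAbp and was 6.7% for ewg.

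**Figure D4:**
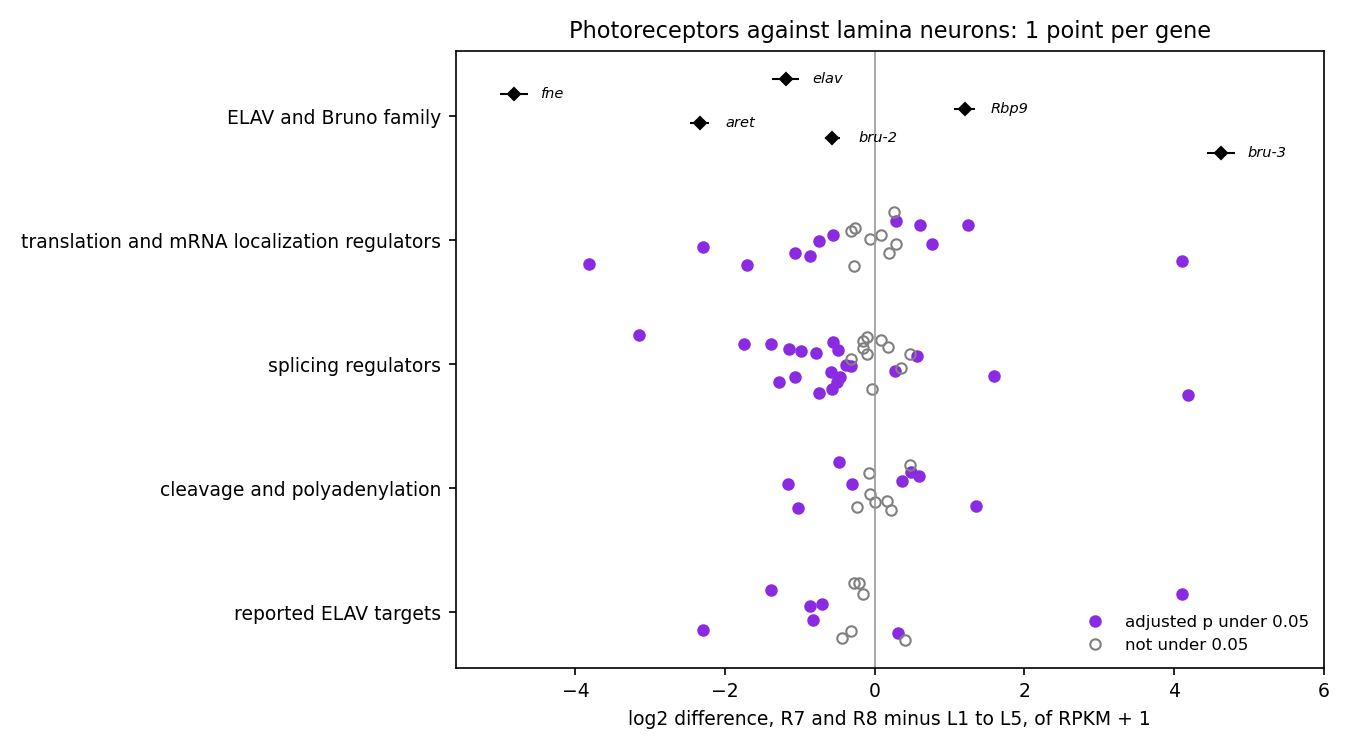
Log2 difference of R7 and R8 minus L1 to L5, of RPKM + 1, for the 6 members (black diamonds, bars are 1 SE) and for the genes of 4 lists of RNA regulators and reported targets (1 point per gene, filled where the adjusted p is under 0.05). The fne and bru-3 differences, -4.82 and 4.63, lie outside the range of the listed genes, from -3.82 for Rbp6 to 4.18 for mbl. The members were selected on their levels by type, so their place beside the lists is a description.

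Between R7 and R8, 3 genes of the 4 lists were called, against 3.20% of all genes higher and 7.14% lower in R7. With those 4 libraries alone more were called: 2 higher and 5 lower in the translation list, 4 higher and 5 lower in the splicing list, 4 higher and 0 lower in the cleavage list, and 1 each way among reported targets, against 18% and 18.7% of all genes. Syp, an RNA-binding protein that works opposite to Imp in temporal patterning, was lower in R7 (-1.88, SE 0.40, adjusted p = 0.00756), with means of 37.5 RPKM in R7 and 141 RPKM in R8. Leaving out any 1 of the 4 R7 and R8 libraries put its adjusted p at 0.0569 to 0.0593. heph was higher in R7 by 0.98 (SE 0.22, adjusted p = 0.0110), with means of 14.7 RPKM in R7 and 6.96 RPKM in R8, a call lost in 5 alternative settings. The splicing list held 1 further call, how (held out wings), which fell outside the naming rule and was named after its values were seen. It was lower in R7 (-1.56, SE 0.26, adjusted p = 0.00170), with means of 0.0862 RPKM in R7 and 2.27 RPKM in R8, and the splicing list had no gene called lower in R7 when either R8 library was left out. The summed glial markers were at 24.8 to 28.5 RPKM in R7 and 34.6 to 36.0 RPKM in R8, and their part in this difference was not tested.

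Among L1 to L5, 10 of the splicing, 7 of the translation, 7 of the cleavage and polyadenylation genes and 6 of the reported ELAV targets passed the F-test (background 44.6%). Leaving out 1 library gave 4 to 9 calls in the translation list and 5 to 11 in the cleavage list. msi spanned 4.56 log2 units (adjusted p = 6.18e-09), with 36.3 RPKM in L4 and 20.7 RPKM in L3 against 0.531 RPKM in L1. Like bru-2, it was highest in L4 and L3. mbl spanned 4.93 log2 units (adjusted p = 2.49e-07), with 96.1 RPKM in L1 and 2.18 RPKM in L2, and 20.7 RPKM in L3. chinmo, a transcription factor of temporal patterning, spanned 2.27 log2 units (adjusted p = 2.27e-05) and was lowest in L3 (2.27 RPKM). In R7 and R8 chinmo averaged 13.5 and 10.9 RPKM. Its F-test call was lost without the 4 L3 libraries (span 0.87 log2 units, adjusted p = 0.1).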

How the data were processed

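RNA-seq levels of sorted neurons were taken from a table of RPKM values deposited by the authors, with 1 column per library and 0 unmapped sample columns. Reads were aligned with TopHat to BDGP5, per the submitters' processing notes. Not given in the sources used here are versions, annotation, counting tool, strand setting and the treatment of multiply mapped reads, which could split reads between paralogs. Steps between low values gave each library's depth: 70.5% to 74.1% of values of up to 20 reads were within 0.05 of a whole read, too few to recover counts, so no count test was run. Identifiers of 15002 of 15682 genes matched the current annotation, from which gene models and exon overlap were read.

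Genes at 1 RPKM or more in at least 2 libraries (9346) were fitted as log2(RPKM + 1) in limma 3.58.1 (R 4.3.3) with trended variance, a mean per type and no covariate. This scale understates the change of low genes. Contrasts were R7 and R8 minus L1 to L5 with types weighted equally, R7 minus R8, and an F-test over L1 to L5, with Benjamini-Hochberg adjustment over all genes and a threshold of 0.05. Tables and figures used Python 3.11.15.

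The members and lists were chosen with earlier results of these data known. Named genes are all members, the 3 genes most correlated with each, and from each list the called genes with the greatest differences (up to 4 each way between photoreceptors and lamina, 2 each way between R7 and R8) or the 3 lowest p among lamina types, with a mean of at least 10 RPKM. Some genes that the rule names among lamina types are not described. Alternatives were quantile normalization, no filter, a pseudocount of 0.1, the replicate number as a block, each library left out, R7 and R8 alone, the lamina alone, no L3 and, chosen after seeing the data, no L3 replicates 3 and 4. No reference protein or promoter sequence was used here, so the planned protein comparison was not made.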

Additional observations from a re-analysis of the deposited data

How the results depend on the processing

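The member counts between photoreceptors and lamina (2 higher, 4 lower) were the same under every alternative tried. In the main fit 31.7% of all genes were higher and 30.2% lower. The members were selected on their levels in these same libraries, so nothing is read from the unchanged counts. No result changed direction with a call. The R7 against R8 counts depended most on the fit: 299 genes were higher and 667 lower in R7, against 1396 and 1455 with those 4 libraries alone, where 3 members were higher instead of 0. Genes higher in R7 numbered 588 with the replicate block, 520 without L3 replicates 3 and 4 and 472 without L3, each with 1 member higher, bru-3. Leaving out 1 library at a time gave 108 to 373 genes higher, 309 to 770 lower and 0 to 1 members higher, the 1 without L3 replicate 4. The replicate block otherwise gave 3246 genes higher and 3306 lower in photoreceptors, against 2963 and 2821 without it, and 6075 genes and 5 members among lamina types, against 4164 and 4. The labels do not say that a replicate number links libraries of different types. Over 42 same-numbered pairs the correlation of deviations ran from -0.249 to 0.320 and was over 0.1 in 18, so the numbers were not taken as pairs. Among L1 to L5, calls were 6 with the lamina alone and 18 with the block in the splicing list (10 otherwise), 4 and 12 in the translation list (7), and 3 and 13 in the cleavage list (7). With a pseudocount of 0.1 the photoreceptor to lamina difference was -2.96 for aret and 5.38 for bru-3. Quantile normalization exchanged neighbouring types in the order of elav, aret, bru-2 and bru-3 and moved the all-gene median by -0.03 (photoreceptors to lamina) and 0.08 (R7 to R8). Depth limits bru-2 in R7, and 2 libraries per type limit every comparison within a class.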
